A study of Mus musculus with 12 samples.

Results

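The kappa variable segments were taken as every gene of the expression table whose symbol starts with Igkv, which gave 105 of 41128 genes. They fall into 19 families by the number that follows Igkv in the symbol. Expression was measured by strand-specific sequencing of ribosome-depleted RNA in 12 libraries, all from C57BL/6J mice of 6 to 8 weeks and prepared from the spleen. The libraries form 4 groups of 3, namely CD43- resting B cells of females and of males, and CD4+CD62L+ naive T cells of females and of males, the latter sorted as CD62L high, CD44 low and CD25 negative after magnetic enrichment. The labels name no transgene, deletion or treatment in any group. The RNA of a library came from 1000000 cells, and replicates are described as pools of mice, so the spread given below is a spread between pools. The unit throughout is the deposited adjusted TPM, which as TPM is a level per length, with a point estimate and a lower and an upper bound in each library. Where 6 libraries are summarised, the lowest, the median and the highest value are given.

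An antibody light chain of the kappa class is encoded by a variable segment joined to a joining segment and spliced to the kappa constant gene, Igkc. The joining is made in the bone marrow by the RAG recombinase, once or a few times in each developing B cell, and a mature B cell as a rule displays a single light chain on its surface. Segments that point the same way as the joining segments are joined by deletion of the DNA between them, and segments that point the other way by inversion. In a population of resting B cells the level of a segment therefore depends on how many cells carry it in a joined gene and on how much RNA each of them makes, and fewer cells and less RNA per cell cannot be told apart in bulk samples.

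Of the 105 segments, 103 were matched by gene identifier to the GENCODE M21 annotation of GRCm38, all on chromosome 6. The annotation calls 97 of these functional variable genes and 6 variable pseudogenes, and places 39 on the plus strand and 64 on the minus strand. The first joining segment, Igkj1, lies at chr6:70722562-70722599 and Igkc at chr6:70726435-70726966, both on the plus strand. Igkv2-109 and Igkv2-116 had no match and are given without a position. A further 4 identifiers carry another name in that annotation: Igkv4-73 is listed there as Igkv4-51, Igkv12-47 as Igkv13-85, Igkv4-56 as the pseudogene Igkv4-83, and the lower of the 2 rows named Igkv19-93 as the pseudogene Igkv11-106. Symbols and families below are those of the table.

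The labelled cell types were checked against their markers. Of the B cell genes, Ms4a1 was between 732.0 and 852.0 in the B cell libraries and between 0.0900 and 1.33 in the T cell libraries, and Pax5 was between 127.6 and 166.5 in the B cell libraries and at or below 0.00218 in the T cell libraries. The summed level of 5 T cell genes, among them Cd3e and Cd4, was between 9.76 and 14.1 in the B cell libraries and between 1017 and 1194 in the T cell libraries. No library went against its label. The sum of all adjusted TPM differed between libraries, so results were repeated with equal totals.

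In B cells the kappa variable segments spanned levels from near silence to above 90. The 10 segments with the highest mean came from 8 families: Igkv10-96, Igkv1-117, Igkv1-135, Igkv1-110, Igkv6-15, Igkv14-111, Igkv19-93, Igkv2-137, Igkv12-44 and Igkv9-120. Together they took 36.6% to 39.0% of the summed level of all segments. The last bases of the coding sequence of the leading 5 segments, and of the annotated functional segment with the lowest level, Igkv1-35, are shown here because they hold the end that is joined to a joining segment. Each is the final 48 bases of the GENCODE M21 transcript, 5′ to 3′ in the direction of transcription, with the codon of the last conserved cysteine in capitals.
Igkv10-96: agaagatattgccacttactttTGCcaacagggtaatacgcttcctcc
Igkv1-117: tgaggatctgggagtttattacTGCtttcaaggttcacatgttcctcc
Igkv1-135: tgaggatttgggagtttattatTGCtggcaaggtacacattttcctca
Igkv1-110: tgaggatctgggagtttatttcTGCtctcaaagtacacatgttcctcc
Igkv6-15: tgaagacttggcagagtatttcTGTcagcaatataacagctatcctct
Igkv1-35: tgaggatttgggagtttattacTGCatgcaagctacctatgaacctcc
In all 6 sequences 23 bases followed that codon, and these bases encode the first part of the third hypervariable loop. Igkv10-96 lies at chr6:68631963-68632442 on the minus strand, Igkv1-117 at chr6:68121046-68121827 on the plus strand, Igkv1-135 at chr6:67609713-67610508 on the plus strand, Igkv1-110 at chr6:68270485-68271267 on the plus strand and Igkv6-15 at chr6:70406469-70406992 on the minus strand. Igkv1-35, at chr6:70010949-70011673 on the minus strand, retains the cysteine codon and the same number of bases after it.

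Igkv10-96 had the highest mean of all segments. Its adjusted TPM was 68.0, 90.8 and 76.8 in the 3 female and 91.7, 73.1 and 87.1 in the 3 male B cell libraries, a mean of 81.3 ± 9.97 (SD, n = 6). Igkv1-117 was at 62.6, 74.0 and 67.9 in females and at 82.9, 80.1 and 92.2 in males, a mean of 76.6 ± 10.7 (SD, n = 6). The ranges of Igkv10-96 and Igkv1-117 overlapped, so their order was not separated by the spread between pools. Igkv1-117 was the highest segment in male B cell 2 and male B cell 3. Igkv1-135 had a mean of 68.2 ± 7.63 (SD, n = 6), and its range of 56.6 to 79.5 also overlapped both. Within each of the 6 libraries, however, it was below Igkv10-96. Igkv1-110 followed with 44.9, 50.3 and 45.7 in females and 51.1, 59.5 and 55.1 in males, and Igkv6-15 with 33.6, 52.6 and 39.1 in females and 54.0, 44.0 and 50.4 in males. Igkv1-110 overlapped only Igkv1-135 among the 3 segments above it, and was below Igkv1-135 within each of the 6 libraries. The other 5 of the leading 10 had means between 32.1 and 37.0 and overlapped one another.

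**Figure D1:**
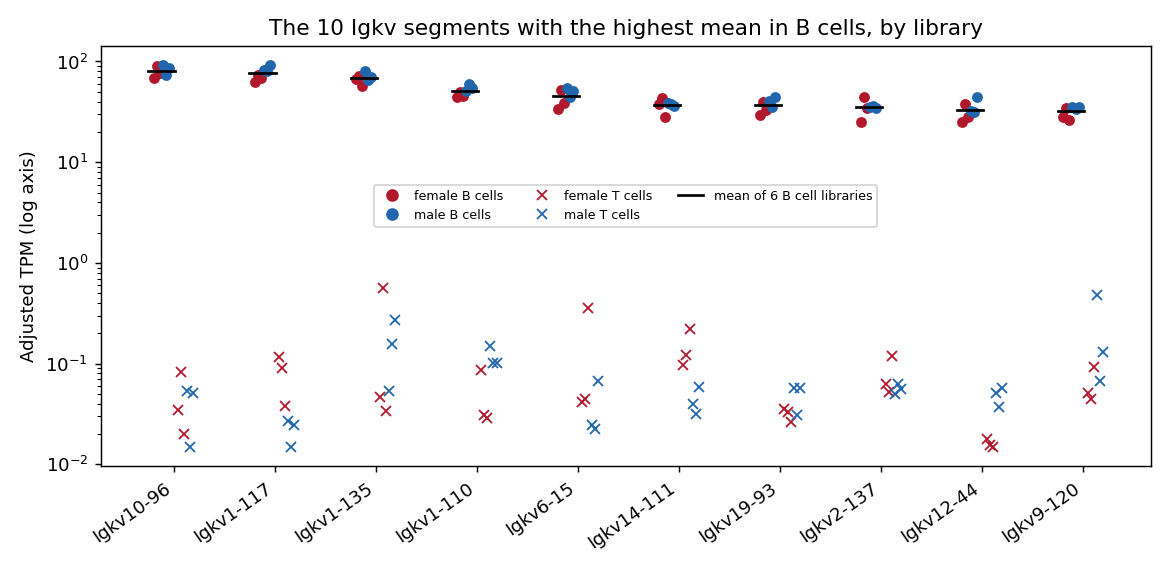
Adjusted TPM on a log axis of the 10 segments with the highest mean in B cells, with each of the 6 B cell libraries as a circle, each of the 6 T cell libraries as a cross, females in red and males in blue, and the black bar at the B cell mean. The B cell values lie between 24.8 and 92.2 and the T cell values at or below 0.563.

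The levels of the remaining segments formed a continuous slope rather than a group of used and a group of unused segments. A mean of at least 10 was reached by 43 of the 105 segments in B cells, a mean from 1 to 10 by 41, and a mean from 0.1 to 1 by 16, while 5 were below 0.1. Ordered by mean share, 6 segments made up 25% of the summed level, 16 made up 50%, 32 made up 75% and 50 made up 90%. The effective number of segments, the exponential of the Shannon entropy of the shares, which would be 105 if all were equal, was 54.3, 55.8 and 55.3 in female and 54.2, 56.0 and 55.9 in male B cells. The order of the 84 segments with a mean of at least 1 was much alike in the 6 libraries, with Spearman's rho between 0.964 and 0.982 over the 15 pairs of libraries. This is a description across segments, which share the length and sequence of their family and the scaling of their library.

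Segments annotated as pseudogenes stood at the foot of this order. The 6 pseudogenes together took 0.0162% to 0.0485% of the summed level. Igkv1-115 was the highest of them, at 0.121, 0.505 and 0.172 in female and 0.0565, 0.0899 and 0.109 in male B cells, followed by Igkv4-56 with 0.107 to 0.170 and Igkv13-87 with 0.0170 to 0.0238. Female B cell 2 was thus high for Igkv1-115. Of the 5 segments below 0.1, 4 were annotated pseudogenes and the remaining one was Igkv1-35, which had 0.00387 to 0.00694 in B cells and 0.00510 to 0.00755 in T cells. For segments below 0.1 the upper bound of a library was typically 571 times its lower bound, so that their order has no precision, whereas this ratio was 5.80 from 0.1 to 1, 1.88 from 1 to 10 and 1.33 at 10 or more.

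The families differed in how evenly their members were expressed. Family 1 took the largest share of the summed level, 16.4% ± 0.998 (SD, n = 6), through 3 segments above 10, while 3 of its 11 members were below 1 and its median member was at 2.53. Family 6 took 11.8% ± 0.704 (SD, n = 6) through 9 members with a median of 15.3, led by Igkv6-15. Family 4, the family with most members in the table, took 11.5% ± 0.955 (SD, n = 6) with 27 segments, of which 7 were above 10. The highest segment of family 4, Igkv4-59, had a mean of only 24.2, and the median member was at 3.43. The shares of families 6 and 4 overlapped, and that of family 1 lay above both in every library.

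Families 8, 3 and 10 took 8.65%, 8.24% and 8.17% of the summed level and could not be put in order. They were led by Igkv8-24 with 22.7 to 38.4, by Igkv3-4 with 22.4 to 41.6 and by Igkv10-96. Family 10 reached its share with 3 members, 75.9% of it through Igkv10-96, whereas families 8 and 3 had 9 members each. Igkv12-44, Igkv5-43, Igkv2-137 and Igkv14-111 led families 12, 5, 2 and 14, whose mean shares were 6.57%, 5.49%, 4.88% and 4.36%. Igkv9-120 made up 76.4% of family 9, and Igkv17-127 had 17.1 to 25.6 in family 17. Family 19 was the row Igkv19-93 at chr6:68736297-68736780, with 29.2 to 44.2.

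The families with a single expressed member were uneven as well. Igkv16-104 was at 16.9 to 29.8, Igkv15-103 at 14.0 to 25.2 and Igkv13-84 at 15.7 to 21.3. Igkv11-125 reached 0.876 to 2.16, Igkv7-33 reached 0.571 to 1.01 and Igkv18-36 reached 0.362 to 0.559, so that families 11, 7 and 18 each took at most 0.156% of the summed level. In none of the 19 families did the shares of the female and male libraries separate without overlap.

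**Figure D2:**
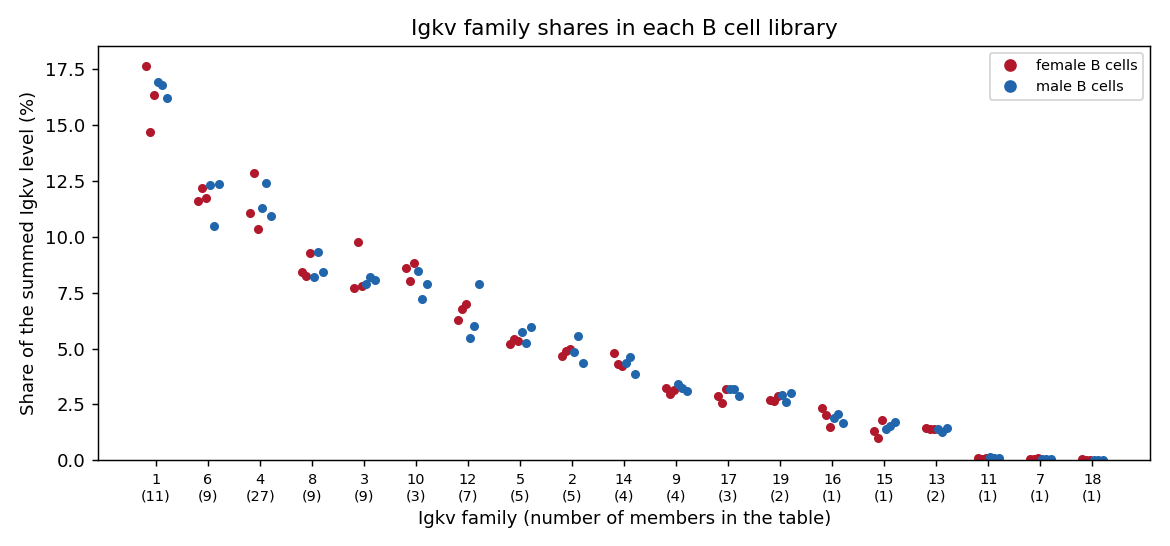
Share of the summed Igkv level, in percent, of each of the 19 families in the 6 B cell libraries, with females in red and males in blue and the number of segments of each family in brackets. Family 1 lies at 14.7% to 17.7%, families 6 and 4 between 10.4% and 12.9%, and families 11, 7 and 18 at or below 0.156%.

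The spread between the B cell pools was not the same for all segments. Among the 43 segments with a mean of at least 10, the coefficient of variation over the 6 libraries ran from 9.98% to 30.3%, with a median of 17.6%. The steadiest were Igkv10-94, with 19.8 to 25.3, then Igkv1-110, Igkv1-135, Igkv8-28 and Igkv9-120. The most variable were Igkv8-21, Igkv3-2, Igkv4-57, Igkv4-59 and Igkv4-53, of which 3 belong to family 4. Igkv8-21 was at 11.2, 23.5 and 13.7 in females and 12.6, 12.5 and 16.2 in males, and Igkv3-2 at 15.6, 37.1 and 19.6 in females and 23.9, 24.6 and 27.0 in males. For Igkv8-21, Igkv3-2 and Igkv4-59 female B cell 2 was the highest library, at 36.1 for Igkv4-59 against 18.7 to 26.0 elsewhere.

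Female B cell 2 was the highest of the 6 libraries for 17 of these 43 segments, and male B cell 3 for 15. Female B cell 1 was the lowest for 25 and female B cell 3 for 16. Female B cell 2 also had the largest departure in the make-up of the segments, with a root mean square deviation of 0.227 on the log2 scale of the shares against 0.131 to 0.182 in the others. Between 11.6% and 58.1% of the 43 segments had separate deposited bounds in a pair of female pools and between 6.98% and 25.6% in a pair of male pools. The bounds of a female and a male pool were separate for 14.0% to 67.4% of the segments.

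Segments with very similar sequences were examined next, since reads from them are hard to assign. By blastn over at least 250 bases, 46 of the 103 segments with a transcript sequence had another member at 95% identity or more, and 9 pairs, made of 18 segments, were at 97% or more. In 6 of these 9 pairs the ranges of the 6 B cell libraries were separate, with ratios of the means from 1.02 to 32.1 over the 9 pairs, above 3 in 5 of them. How reads shared by such segments were divided is not given in the sources used here, so these levels are uncertain, and the sequences of 3 pairs from different families are shown to make clear how little separates them. Each is a run of 300 bases of the GENCODE M21 transcript up to the end of the alignment, 5′ to 3′, with the bases that differ within the pair in capitals.
Igkv6-20: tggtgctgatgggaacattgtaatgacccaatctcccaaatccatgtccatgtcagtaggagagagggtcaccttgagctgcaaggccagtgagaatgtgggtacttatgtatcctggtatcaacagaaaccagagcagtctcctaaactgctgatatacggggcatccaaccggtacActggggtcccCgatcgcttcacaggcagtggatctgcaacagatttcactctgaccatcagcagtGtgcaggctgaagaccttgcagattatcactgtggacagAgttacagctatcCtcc
Igkv6-29: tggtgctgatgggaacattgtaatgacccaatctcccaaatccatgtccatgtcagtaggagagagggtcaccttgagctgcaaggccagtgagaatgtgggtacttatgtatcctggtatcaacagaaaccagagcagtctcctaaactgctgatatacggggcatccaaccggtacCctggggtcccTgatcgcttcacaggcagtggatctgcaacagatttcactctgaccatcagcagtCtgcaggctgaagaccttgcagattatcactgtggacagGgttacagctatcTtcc
Igkv6-20 at chr6:70335841-70336507 and Igkv6-29 at chr6:70138462-70139110, both on the minus strand, differed at 5 of 375 aligned bases, all of them in the stretch shown. Igkv6-20 was at 7.70, 11.1 and 10.0 in female and 9.38, 6.84 and 14.1 in male B cells. Igkv6-29 was at 0.250, 0.179 and 0.296 in female and 0.242, 0.424 and 0.456 in male B cells. The mean of Igkv6-20 was 32.1 times that of Igkv6-29, and the lowest lower bound of the first, 5.35, stood above the highest upper bound of the second, 0.847.

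Igkv5-43: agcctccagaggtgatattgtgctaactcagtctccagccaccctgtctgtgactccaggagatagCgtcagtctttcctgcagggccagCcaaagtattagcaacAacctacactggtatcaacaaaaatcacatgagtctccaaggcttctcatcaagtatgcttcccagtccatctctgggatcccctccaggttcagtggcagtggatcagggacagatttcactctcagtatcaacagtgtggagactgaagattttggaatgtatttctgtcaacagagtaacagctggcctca
Igkv5-45: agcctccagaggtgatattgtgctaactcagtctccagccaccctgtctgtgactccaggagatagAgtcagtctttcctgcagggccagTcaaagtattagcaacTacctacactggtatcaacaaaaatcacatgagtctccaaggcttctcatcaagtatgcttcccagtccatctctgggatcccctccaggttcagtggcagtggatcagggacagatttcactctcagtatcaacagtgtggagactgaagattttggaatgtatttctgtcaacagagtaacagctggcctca
Igkv5-43 at chr6:69823355-69823943 and Igkv5-45 at chr6:69775750-69776344, both on the minus strand, differed at 6 of 379 aligned bases, 3 of them in the stretch shown. Igkv5-43 was at 25.7, 30.4 and 22.1 in female and 30.5, 23.2 and 31.7 in male B cells. Igkv5-45 was at 2.31, 6.44 and 3.59 in female and 5.10, 5.37 and 4.90 in male B cells. Every library of the first lay above every library of the second, by a ratio of the means of 5.90.

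Igkv10-94: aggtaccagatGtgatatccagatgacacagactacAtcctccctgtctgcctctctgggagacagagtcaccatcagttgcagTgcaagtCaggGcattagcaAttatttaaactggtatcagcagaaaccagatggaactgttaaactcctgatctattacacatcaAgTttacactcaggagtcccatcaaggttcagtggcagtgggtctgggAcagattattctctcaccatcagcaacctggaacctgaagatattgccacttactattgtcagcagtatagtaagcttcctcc
Igkv10-95: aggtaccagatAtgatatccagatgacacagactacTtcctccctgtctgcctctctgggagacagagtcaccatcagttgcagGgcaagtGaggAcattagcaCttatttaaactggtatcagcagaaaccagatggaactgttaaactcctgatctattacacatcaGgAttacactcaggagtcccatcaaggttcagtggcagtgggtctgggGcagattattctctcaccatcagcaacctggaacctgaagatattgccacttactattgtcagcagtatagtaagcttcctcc
Igkv10-94 at chr6:68704508-68704978 on the minus strand and Igkv10-95 at chr6:68680379-68680848 on the plus strand differed at 10 of 347 aligned bases, 9 of them in the stretch shown. Igkv10-94 had a mean of 21.6 ± 2.15 (SD, n = 6) and Igkv10-95 of 4.31 ± 0.606 (SD, n = 6), with no overlap. Igkv4-59 and Igkv4-70 stood apart likewise, at 18.7 to 36.1 against 3.20 to 5.95. By contrast Igkv8-19 and Igkv8-28 had ranges of 9.90 to 15.2 and 10.2 to 14.0, and Igkv17-127 and Igkv17-121, Igkv3-5 and Igkv3-10 also overlapped.

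**Figure D3:**
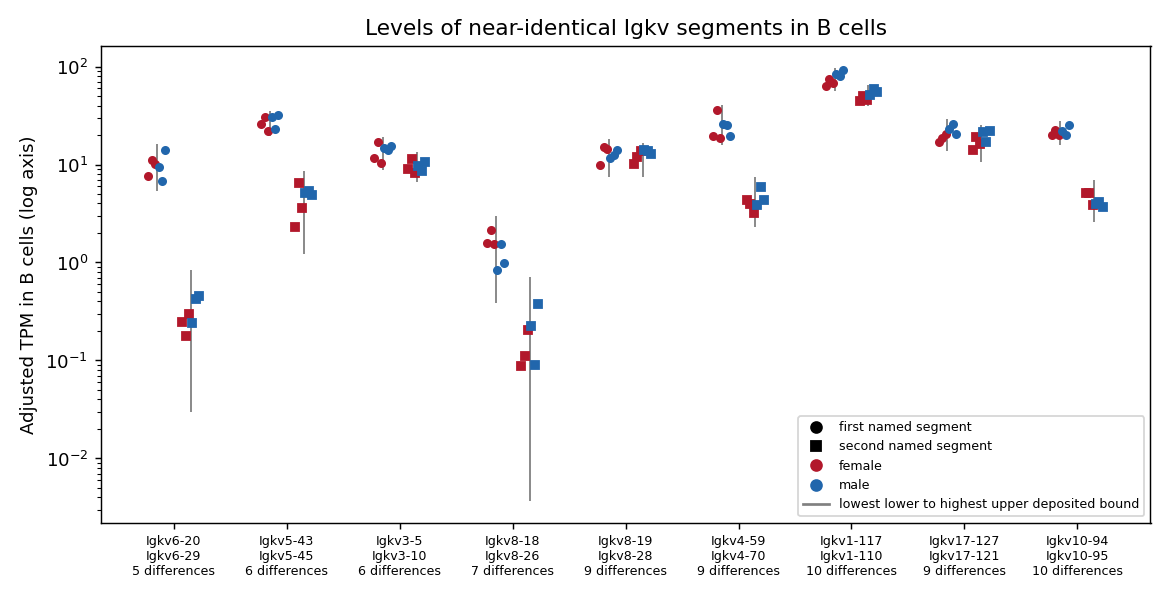
Adjusted TPM on a log axis in B cells of the 9 pairs of segments at 97% identity or more, with the first named segment as circles, the second as squares, females in red, males in blue, and a grey line from the lowest lower to the highest upper deposited bound. The pair Igkv6-20 and Igkv6-29 is apart by a ratio of means of 32.1, and Igkv8-19 and Igkv8-28 lie together.

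Distance from the joining segments gave no order of levels along the locus. Among the 97 annotated functional segments Spearman's rho between the distance from Igkj1 and the mean level in B cells was -0.0086, a description with no test. The nearest of these, Igkv3-1 at 18.4 kb, was at 2.57 to 4.73, and the next one, Igkv3-2 at 23.5 kb, was at 15.6 to 37.1. The farthest, Igkv2-137 at 3166 kb, was at 25.3 to 44.7. With the 103 placed segments divided by rank of distance, the nearest 34 took 31.6% of the summed level, the middle 34 took 21.5% and the farthest 35 took 45.1%. These shares did not overlap between libraries, at 30.5% to 33.1%, 20.6% to 23.1% and 42.5% to 46.8%.

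Of the 10 highest segments, 8 were among the farthest 35, 1 among the middle 34 and 1 among the nearest 34. A mean of at least 10 was found for 17 of the nearest 34, 11 of the middle 34 and 14 of the farthest 35. The median segment was at 11.3, 5.49 and 5.46 in the same order. By orientation, the 39 segments on the plus strand, which point the same way as the joining segments, took 44.7% to 47.1% of the summed level and the 64 on the minus strand 50.9% to 53.7%. The median segment of the plus strand was at 9.33 and that of the minus strand at 5.86, and 17 of 39 and 25 of 64 reached a mean of 10. Orientation went with position, as the middle 34 held 2 plus and 32 minus strand segments. Among the nearest 34 the plus and minus strand medians were 9.57 and 12.7, and among the farthest 35 they were 7.40 and 2.03. A difference by orientation apart from position was not tested.

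**Figure D4:**
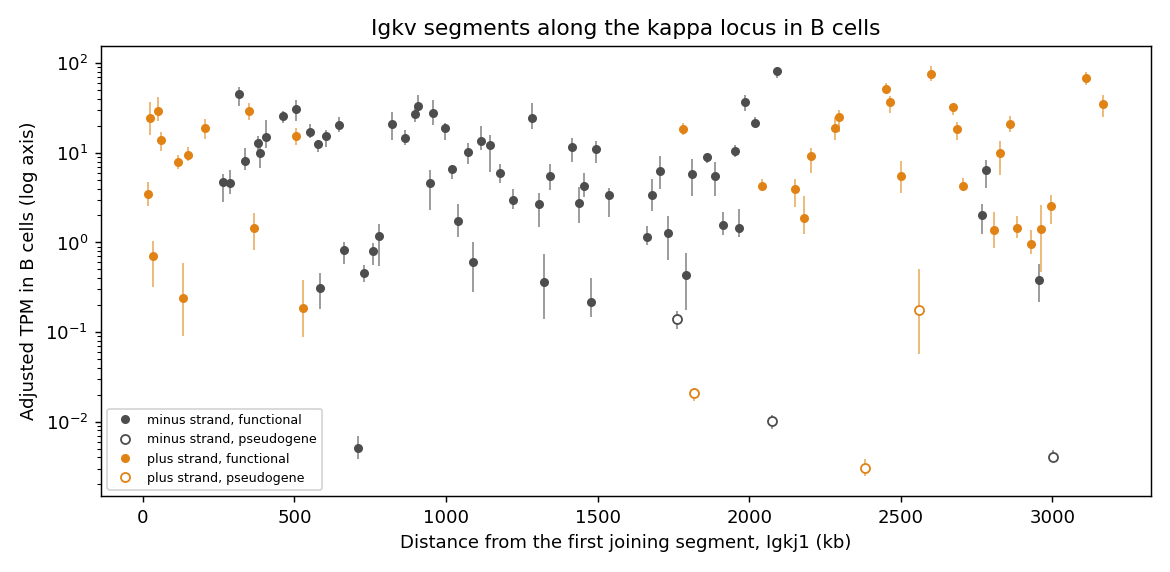
Mean adjusted TPM in B cells on a log axis of the 103 placed segments against their distance from Igkj1 in kb, with the bars from the lowest to the highest of 6 libraries, plus strand in orange, minus strand in grey and pseudogenes as open circles. High and low segments are found next to each other along the whole locus, and the 6 pseudogenes lie at or below 0.176.

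The level of the kappa variable segments as a whole was then set beside the other light chain genes. The summed level in B cells was 1083, 1477 and 1142 in females and 1388, 1342 and 1473 in males, and that of Igkc was 914, 1038 and 883 in females and 1181, 957 and 1045 in males. The sum was 1.18 to 1.42 times the level of Igkc. The joining segments Igkj1 to Igkj5, which are very short, were at or below 0.160 in all 12 libraries. The lambda variable genes Iglv1, Iglv2 and Iglv3 together had 248.5 to 330.6, so that kappa segments made up 79.3% to 84.4% of the summed light chain variable level in B cells.

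The first comparison asks how the segments differ between B cells and naive T cells, which have rearranged T cell receptor genes instead. The summed level was 1083 to 1477 in B cells and 3.79 to 5.32 in T cells, a difference of 8.18 on the log2 scale (p = 0.002165, exact permutation test, two-sided, 6 against 6, the smallest p this design allows). With the deposited lower bounds in place of the point estimates the difference was 12.03. Relative to Igkc, which was at 0.163 to 1.85 in T cells, the direction turned, to -2.25 on the log2 scale for B minus T. In each T cell library 97 to 103 of the 105 segments were below 0.1. A gene was tested where 3 or more libraries stood at an adjusted TPM of 1 or above, which held for 84 of the 105 segments, and no segment reached 1 in any T cell library. All 84 had a higher level in B cells at an adjusted p under 0.05 (limma with Benjamini-Hochberg adjustment, the threshold used throughout), against 31.4% of all 12520 tested genes. Since they could pass the filter only through B cells, this count is no support for a difference. With every library rescaled to the same total, 5087 of 7108 genes past the threshold were higher in B cells against 3926 of 9134 as deposited.

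For single segments the levels are given as a description, since the test has the same limit for each of them. Igkv10-96 was at 68.0 to 91.7 in B cells and at or below 0.0827 in T cells, and Igkv1-117 at 62.6 to 92.2 in B cells and at or below 0.116 in T cells. For 100 of the 105 segments the lowest B cell library was above the highest T cell library. The same count was not made over all genes, so it is no result particular to the segments.

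Traces in T cells were few. A level of 0.1 or more was found in 24 of 630 values, in 16 segments. The 5 segments with the highest mean in T cells were Igkv1-135, Igkv9-120, Igkv5-39, Igkv5-48 and Igkv14-111. Igkv1-135 was the highest segment in 3 of the 6 T cell libraries, at 0.563 in female T cell 5, 0.158 in male T cell 5 and 0.272 in male T cell 6, and was at or below 0.0530 in the other 3. Igkv9-120 reached 0.483 in male T cell 4, with a median of 0.080 over the 6 T cell libraries. Igkv5-39 was spread more evenly, at 0.0678 to 0.226 in all 6.

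The T cell mean of the 10 leading segments, summed, was 0.169% of their B cell mean. It was 0.225% for the segments with a mean of at least 10 in B cells and 0.344% for all segments. The same percentage was 0.0994% for Igkc, 0.101% for Iglc2, 0.189% for Cd79a, a subunit of the B cell receptor, 0.0860% for Cd79b, its partner, and 0.0672% for Ms4a1, which encodes CD20. The part that B cells left in the T cell sort have in these traces was not tested.

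The genes that build, carry and rearrange the light chain were compared in the same fit. Of 47 listed genes, 40 were in the table, and 31 rows for 30 symbols were tested, since Pou2f1 has 2 rows. In B against T cells 22 of the 31 rows were higher in B cells and 3 were lower by limma, against 73% of all tested genes past the threshold in either direction. Of the 31 rows, 7 reached 1 in no T cell library and 1 reached it in no B cell library, so the filter fixed the direction of these. Cd79a, Cd79b and Iglv1 reached 1 in fewer than 3 T cell libraries, so they too passed the filter only with B cell libraries. The constant genes Igkc and Iglc2 were at 883 to 1181 and 421 to 522 in B cells and at 0.163 to 1.85 and 0.284 to 0.687 in T cells. Iglv1 had 148 to 201 in B cells and 0.0878 to 1.23 in T cells.

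Regulators of the kappa locus differed between the cell types to unlike degrees. Pax5, which fixes the B cell identity, was at 127.6 to 166.5 in B cells and at or below 0.00218 in T cells. Irf4 and Irf8, which act with Spi1 at the kappa enhancers, were at 47.6 to 58.5 and 142 to 185 in B cells and at 0.792 to 1.92 and 1.31 to 2.17 in T cells. Pou2af1, a coactivator bound at the octamer of variable segment promoters, had 177 to 235 in B cells and 3.30 to 4.37 in T cells. Rel had 36.6 to 41.5 in B cells and 5.56 to 8.04 in T cells. Rela and Nfkb1 differed by less, but both were higher in B cells without overlap. Their log2 differences were 0.29 ± 0.06 and 0.32 ± 0.05 (SE), with adjusted p of 0.0015 and 0.00014 by limma. Rela had 22.8 to 27.9 in B cells and 19.4 to 22.6 in T cells. Nfkb1 had 95.3 to 108.3 in B cells and 76.9 to 87.4 in T cells.

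The 3 genes that were lower in B cells have roles in joining. Dntt, the polymerase that adds bases at junctions, was at or below 0.0112 in B cells and at 6.50 to 7.96 in T cells. Xrcc4, a partner of DNA ligase 4, was lower by 0.99 ± 0.07 on the log2 scale (SE; adjusted p = 2.9e-08, limma) and Xrcc5, a subunit of Ku, by 0.26 ± 0.08 (SE; adjusted p = 0.013, limma). With equal totals per library the difference of Xrcc5 was 0.10 in the other direction (adjusted p = 0.67, limma), so its call did not hold. Other listed joining genes were not lower. Dclre1c was at 10.3 to 12.4 in B cells and at 5.33 to 7.64 in T cells. It was thus higher in B cells by 0.77 ± 0.07 (log2, SE; adjusted p = 2.9e-07, limma). Xrcc6, Lig4, Prkdc and Nhej1 were not past the threshold. Of the recombinase genes, Rag1 was at 0.821 to 1.70 and Rag2 at 0.0121 to 0.0457 in B cells, both too low to be tested. Vpreb1 and Igll1, the surrogate light chain genes of precursor B cells, were at or below 0.0106 in B cells.

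The second comparison asks whether the segments differ between the sexes within a cell type. In B cells 0 of the 84 tested segments were past the threshold by limma with Benjamini-Hochberg adjustment, where 0.144% of all tested genes were. At an unadjusted p under 0.05 there were 20 segments, 19 of them lower in females, against 2.98% of all tested genes. The median difference, female minus male, was -0.19 on the log2 scale over the 84 segments and -0.01 over all tested genes, and it was negative for 70 of 84. Because the segments share their libraries these values are not independent of one another.

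The summed level was not separated between the sexes, as female B cell 2, at 1477, was the highest library of all while the other 2 female libraries were the lowest. The difference was -0.20 on the log2 scale (p = 0.4, exact permutation test, two-sided, 3 against 3, where the smallest possible p is 0.1). The effective number of segments differed by -0.236 between females and males (p = 0.6, exact permutation test, two-sided). No difference of either could have passed 0.05 with 3 libraries against 3.

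For 13 of the 84 tested segments every male B cell library was above every female one, and for none was it the reverse, while 3.85% of all tested genes had every male above every female. Expressed as shares of the summed level of the library, 4 of the 84 were higher in all males and 2 in all females, together 7.14%. Counted on their levels, 7.20% of all tested genes had no overlap in either direction. The count of shares is near that value and is no result about the segments. The segments with the smallest adjusted p were Igkv9-123, Igkv4-73, Igkv2-109, Igkv1-117 and Igkv4-81. Igkv9-123 was at 1.47, 1.81 and 1.26 in females and 2.69, 2.47 and 2.47 in males, a difference of -0.50 ± 0.09 (log2, SE; adjusted p = 0.077, limma). Igkv4-73 was at 1.15, 1.43 and 1.15 in females and 2.72, 2.15 and 1.86 in males, a difference of -0.52 ± 0.10 (log2, SE; adjusted p = 0.11, limma). In both the sexes did not overlap, and neither passed the threshold.

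The other 3 had the same direction. Igkv2-109 was at 21.2, 19.0 and 17.5 in females and 25.1, 32.6 and 23.8 in males (adjusted p = 0.36, limma). Igkv4-81 was at 1.28, 0.820 and 0.632 in females and 1.39, 1.51 and 1.98 in males, and Igkv1-117, whose values are given above, had a difference of -0.32 ± 0.08 (log2, SE); both had an adjusted p of 0.50 by limma. Without female B cell 2, Igkv9-123 and Igkv4-72 passed the threshold, both lower in females, with 49 of 82 segments at an unadjusted p under 0.05. Igkv4-72 was named after its values were seen. With no filter on low values 22 of 105 segments passed, 16 of them lower in females. The fitted difference of Igkv9-123 was -0.50 there too, and only its adjusted p changed, to 0.00079 by limma. The share of all genes past the threshold in these settings is not given here. These counts are therefore no result about the segments.

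Markers of other cells were measured beside this comparison, antibody-secreting cells first. The summed level of the 7 such genes in the table was 244.5 to 321.7 in female and 314.4 to 366.1 in male B cells. Of the 7, 1 was higher in every male than in every female pool, namely Igj, which encodes the joining chain of secreted antibodies, at 50.7, 81.7 and 104.1 in females and 130.9, 109.6 and 110.4 in males. The difference of Igj, female minus male, was -0.62 ± 0.22 on the log2 scale (SE) and was not past the threshold by limma. The other genes of this list did not separate the sexes in either direction, and their levels differed widely from gene to gene. Sdc1 was at 5.48 to 6.82, Prdm1 at 0.521 to 0.932 and Tnfrsf17 at 0.0600 to 0.308. Mzb1 was at 85.6 to 123.8, Xbp1 at 43.7 to 57.3 and Irf4 at 47.6 to 58.5. The summed level of 3 monocyte genes was 8.95 to 11.3 in female and 11.4 to 13.1 in male B cells, without overlap, with every male above every female pool for 1 of the 3, Lyz2, and the reverse for 1, Cd68. That of 3 erythroid genes was 0.912 to 39.9 in female and 2.96 to 198.2 in male B cells, with overlap. The part of these cells in the values of the segments was not tested.

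**Figure D5:**
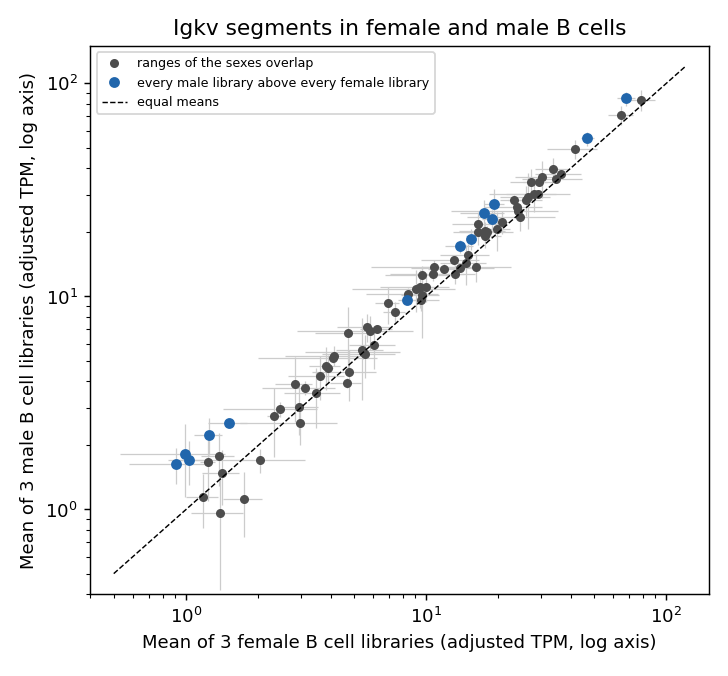
Mean adjusted TPM of the 84 tested segments in 3 female (horizontal, log axis) and 3 male (vertical, log axis) B cell libraries, with bars for 1 SD and a dashed line at equal means. The 13 segments in blue, with every male above every female library, include none with an adjusted p under 0.05.

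In T cells 0 of the 84 segments differed between females and males by limma with Benjamini-Hochberg adjustment and 0 had an unadjusted p under 0.05, where 0.104% of all tested genes were past the threshold. These values lie near the lowest levels the table gives and carry little precision. The sex effect was not shown to differ between B and T cells for any segment, with 0 of 84 past the threshold by limma and 11 at an unadjusted p under 0.05, against 0% and 2.36% of all tested genes. The smallest p of this difference was found for Igkv4-73, Igkv9-123 and Igkv1-117, with an adjusted p of at least 0.99 each.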

How the data were processed

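RNA sequencing was analysed in 12 libraries, with groups taken from the labels. The table deposited by the authors gives for each library a signal named adjusted TPM, as a point estimate with a lower and an upper bound. The submitters' processing notes name Trim Galore, FastQC, STAR and mm10. The quantification tool, the adjustment and the level of the bounds are not given in the sources used here. The values are not counts and depth is unknown, so the planned choice for values that are not counts, limma, was used, and precision was read from the bounds. Some label fields name genomic DNA, but the protocol and values are those of RNA. The spike-ins were not used here. 1 marker gene is not reported here.

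The members and lists were chosen with earlier results of these data known. Segments were matched by identifier, without version, to GENCODE M21. Genes that stood at 1 or above in 3 or more libraries were fitted with limma 3.58.1 in R 4.3.3 on log2(adjusted TPM + 1), with 1 coefficient per group over all 12 libraries, a variance trend and Benjamini-Hochberg adjustment, and an adjusted p under 0.05 is called past the threshold. Sums and effective numbers were compared by exact permutation in Python 3.11.15 with numpy 2.4.6, pandas 2.3.3 and scipy 1.17.1, transcripts by blastn 2.17.0+, and plots drawn with matplotlib 3.10.9. Data were simulated for 12520 genes, with 200 changed by 1 on the log2 scale in 10 draws and noise independent between genes. There limma recovered 97.5% between the cell types, 93.1% between the sexes in B cells and 79.2% for the difference of sex effects. The fitted sex differences of the segments in B cells were smaller, from -0.52 to 0.38. The recovery of differences of that size was not simulated.

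Named segments were the 10 highest in B cells, the 5 highest in T cells, the 5 largest and 5 smallest coefficients of variation among means of at least 10, the highest of each family, the 3 highest pseudogenes, the 5 with the smallest adjusted p between the sexes, and the nearest and farthest functional segments. Members of near-identical pairs and the lowest functional segment were named for their sequence or level. Same-numbered female and male T cell libraries deviated together, with correlations of their deviations from the group means of 0.721, 0.548 and 0.521. Same-numbered B cell libraries did not. The labels do not state that the numbers pair libraries, and the main fit used no pairing. Alternatives were another pseudocount, no filter, other scalings, the lower bound, a replicate block and leaving out each library.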

Additional observations from a re-analysis of the deposited data

How the results depend on the processing

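Past the threshold in B against T cells were 84 segments and 25 light chain and rearrangement genes. Both counts stayed within 1.5 times these values under every alternative run, at 82 to 84 and 25 to 26 with each library left out. The segments passed the filter only through B cells, so a steady count is no support for a difference. With no filter 105 segments were past the threshold, 102 of them higher and 3 lower in B cells. The summed level in B against T cells kept its direction and p in all but 1 alternative, with a log2 difference of 8.13 to 8.24 with each library left out and 12.03 with the lower bounds. Divided by Igkc it was -2.25 (p = 0.002165, exact permutation test, 6 against 6), and Igkc in T cells lies at 0.163 to 1.85. The sexes in B cells gave 0 segments in all but 2 settings, with 22 without a filter and 0 to 2 with each library left out, the 2 being without female B cell 2. Without a filter there were 2 segments between the sexes in T cells and 6 for the difference of the sex effects. These calls include segments near the lowest levels of the table, such as Igkv13-87 in T cells, and the cause was not tested. The share of all genes past the threshold in these settings is not given here. The difference of the summed level between the sexes in B cells was -0.33 to -0.11 with each library left out. The difference in effective number ran from -0.799 to 0.169, being 0.169 without female B cell replicate 1, 0.0620 without male B cell replicate 2 and 0.0291 without male B cell replicate 3. Rescaling to equal totals moved the median of all genes in B against T cells from -0.09 to 0.26 and turned the difference of Xrcc5 to 0.10.

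Same-numbered female and male B cell libraries did not deviate together, with correlations of -0.169, -0.0382 and -0.337. With the replicate block there were 0 segments past the threshold between the sexes in B cells (17 at an unadjusted p under 0.05, limma) and 0 for the difference of the sex effects, and the block changed no call. Blocked differences of the sum (-0.20) and of the effective number (-0.236) had p = 0.5 each by exact sign permutation of 3 pairs. No segment passed the filter in T cells alone, so the fits of T cells alone, with and without the block, gave no value. Depth is unknown, and levels under 0.1 cannot be ranked.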
